A study of Mus musculus with 15 samples.

Results

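The probes described here are those of a mouse liver array whose names begin with mouselincRNA and which rose above background during liver development. Of 691 such probes, 248 (35.9%) read well above background throughout the 3 arrays of a stage, in 1 stage or more, and these 248 of the array's 59709 probes that are no controls are the members. RNA came from livers of C57BL/6 mice: from embryos at E12.5, at E14.5 and at E17.5 (days of embryonic development), from neonatal livers whose age in days is not stated in the labels, and from adult livers at 8 weeks. Each stage had 3 arrays of 1 colour (Cy3), 15 in all, and no treatment or genotype was compared. Ribosomal RNA was removed before labelling, and the labelling used random primers along the transcripts. The labels do not say whether the 3 samples of a stage came from separate animals, litters or pools, so p-values reflect only how far these samples differ, part of which could be technical.

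Long intergenic non-coding RNAs (lincRNAs) are transcripts from stretches between protein-coding genes that encode no known protein. Many are spliced and polyadenylated like messenger RNAs, and those that have been studied act in gene regulation, often in the nucleus. The fetal liver is the main site of blood formation before birth and holds both blood precursors and immature hepatocytes, while the adult liver is dominated by hepatocytes that carry out metabolism. In RNA from whole liver, fewer cells of a type and less RNA per cell cannot be told apart. The scanner files give these probes by name only, with no gene symbol, and probe sequences and genome positions were not used here. A name holds a number and a sign. The files do not define the sign, so the probes of a number are called the + probe and the - probe.

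The 691 probes carried 351 numbers, of which 340 had both a + and a - probe. Both probes were members for 43 numbers, the + probe alone for 76, the - probe alone for 84 and neither for 137. Among the 248 members, 120 were + probes and 128 were - probes. By comparison, 62.6% of all noncontrol probes passed the same filter, as did 33.5% of 1217 probes named for human lincRNAs and 54.2% of 3457 probes named for lincRNA exons. The mouse lincRNA probes therefore passed at a share close to that of the human lincRNA probes and below that of the array as a whole. These shares were not tested against each other.

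Detection of the members was graded, from a single complete stage to every array. On all 15 arrays, 113 members were above background. Only 1 stage was complete for 49 members, 2 stages for 49, 3 for 20 and 4 for 17. The single complete stage was E14.5 for 23 probes, the adult for 21, E12.5 for 3, the neonatal stage for 2 and E17.5 for none. Complete detection was most frequent in the adult (200 members) and at E14.5 (194), and lower at the neonatal stage (155), E12.5 (150) and E17.5 (141). Of the 443 probes left out, 151 were above background on no array and 179 on 1 array, which was E17.5 replicate 1 for 132 of them. The 49 members that passed through 1 stage alone had lowest readings there between -3.65 and -2.24 on the log2 scale, where 0 is the array's 75th percentile. Each was above background on 3 to 9 of the 15 arrays, so most were also detected on arrays of other stages. The 55 probes that missed the filter by 1 array had lowest readings between -5.78 and -3.06 in the stage concerned.

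The arrays were read in 2 scans. Scan 1 held 8 arrays (all of E12.5 and E14.5, and E17.5 replicates 1 and 2) and scan 2 held 7 (E17.5 replicate 3 and all neonatal and adult arrays). E17.5 is thus the only stage read in both scans, and a scan difference around birth is measured through E17.5 replicate 3 alone. On that array, 200 of the 248 members (80.6%) were nearer the neonatal mean than the mean of E17.5 replicates 1 and 2, against 62.9% of the 37363 probes tested. Whether scan, sample or stage sets that array apart cannot be told apart. E17.5 replicate 1 had a high background: 55.8% of its negative-control spots were called above background, against 4.0% to 9.58% on the other arrays, and 433 mouse lincRNA probes against 186 to 248. Multiplicative detrending, a correction of the scanner software for uneven signal across the slide, had been applied to 6 arrays, all in scan 2 (every array of that scan but adult replicate 2). On the other 9 arrays the lowest value was shared by 1917 to 15983 probes, and 54 members sat at it on at least 1 array. An SD among such values is no spread measured for the probe. Liver markers could be checked only in part, since 1 of 12 erythroid markers, 3 of 11 hepatocyte markers, 0 of 4 macrophage markers and 2 of 7 stellate or endothelial markers were named on the array. The transferrin receptor gene Tfrc, which is high in red cell precursors, read 8.89 ± 0.53 at E12.5 and 5.50 ± 0.39 in the adult (SD, n = 3). Other named markers were low in the neonatal liver, as many members were. Hmgcs1, an enzyme of cholesterol synthesis, read 7.88 ± 0.38 at E17.5, 5.76 ± 0.33 in neonatal and 8.86 ± 0.36 in adult liver. The chemokine gene Ccl21b read 1.04 ± 0.20, 0.06 ± 0.43 and 2.45 ± 0.92 at these stages, and Ccl21c read 2.11 ± 0.06, 1.17 ± 0.10 and 2.80 ± 0.71. The hepatocyte-list genes Gk and Amy2a5 did not follow this course, with neonatal means of 1.55 and 6.03 above their E17.5 means of -0.03 and 5.57. The part of these markers in the lincRNA differences was not tested.

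Most members were highest at E14.5 or in the adult and lowest in the neonatal liver. The highest mean was in the adult for 98 members (39.5%), at E14.5 for 87 (35.1%), at E12.5 for 36, at E17.5 for 18 and at the neonatal stage for 9. Over all probes tested the adult share was 32.4% and the E14.5 share 20.6%. Of the 49 members with 1 complete stage, 23 passed the filter through E14.5 and 21 through the adult, so the filter bears on both counts. Among probes above background on every array, the adult was highest for 32.7% of members and 29.5% of all probes, and E14.5 for 41.6% and 21.7%. The lowest mean was neonatal for 132 members (53.2%), compared with 25.4% of all probes tested. Among members above background on every array, 61.9% were lowest at the neonatal stage, compared with 25.8% of all probes that met the same condition.

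The median over the 113 members detected everywhere was taken array by array. It was 0.01, -0.46 and -0.47 on the E12.5 arrays, -0.13, -0.16 and -0.27 on the E14.5 arrays, -0.30, -0.21 and -0.89 on the E17.5 arrays, -0.97, -0.91 and -1.07 at the neonatal stage, and -0.16, -0.66 and -0.38 in the adult. The 3 neonatal arrays were the lowest, and E17.5 replicate 3, read in the same scan, stood next to them rather than beside its own stage. The adult arrays were read in the same scan as the neonatal arrays and lay above all 3 of them. Over all 248 members, many of them near background, the array medians ran from -2.31 on neonatal replicate 3 to -1.46 on adult replicate 1. The median of all probes tested stayed between -0.83 and -0.66 on every array.

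Differences between stages were tested with limma on all 15 arrays, with p-values adjusted by the Benjamini-Hochberg method over all 37363 probes and calls made at an adjusted p below 0.05. Any difference among the 5 stages was called for 138 of the 248 members, 55.65% (background: 61% of all probes). With scan as a block the number was 68, or 27.42% of members (background 41.3%). In none of the 5 pairwise comparisons was a call made for 111 members. The share of all probes without a call was not computed, so this count is a description only. The 4 consecutive comparisons were made in 3 forms: all arrays, scan as a block, and arrays of 1 scan alone. That of E12.5 with the adult was not made within 1 scan, since its arrays share none. Counts with single arrays left out have no background beside them and describe stability only.

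From E12.5 to E14.5 few mouse lincRNA probes changed, and all that did rose (2.02% of members). The 5 called were mouselincRNA0052-, mouselincRNA0079+, mouselincRNA0453+, mouselincRNA0567- and mouselincRNA1103-, with log2 rises of 1.18 to 1.29 (background: 1.82% of all probes up, 3.11% down). In limma no member fell, at an adjusted or at an unadjusted p below 0.05, and 26 rose at the latter. The share of all probes at an unadjusted p is not given. Through E14.5 alone 23 members passed the filter, and 3 through E12.5 alone, so the filter bears on these counts. Among the 113 members above background everywhere, 4 rose (3.54%) and 0 fell, beside 2.723% and 4.787% of all such probes. The median log2 difference over all members was 0.20, beside -0.01 over all probes tested. Both stages were read in scan 1, and within that scan alone 3 members rose (background: 1.31% up, 2.15% down). The block for scan gave 10 rises (background: 2.74% up, 4.22% down). The count moved with single arrays: it was 12 without E12.5 replicate 1, 2 without E12.5 replicate 3, 0 without E14.5 replicate 1 (15 up and 2 down at an unadjusted p below 0.05 in limma), 2 without E14.5 replicate 3, and 10 without E17.5 replicate 3, which enters through the shared spread. E12.5 replicate 1 was the highest of its 3 arrays for 184 of 248 members.

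From E14.5 to E17.5, 8 members (3.23%) rose and 2 (0.81%) fell (background: 6.29% of all probes up, 0.814% down). The 2 rises measured on every array of both stages were those of mouselincRNA0453+, 9.02-fold, and mouselincRNA1468-, 4.61-fold. Another 2 rises are bounds, since the probe was not well above background on any E14.5 array: mouselincRNA0303- was at least 2.36-fold and mouselincRNA0529- at least 2.23-fold higher at E17.5. A bound is the mean of the brighter stage over the mean, in the dimmer stage, of the higher of the probe's signal and the lowest signal called above background on that array. The other 4 rises (mouselincRNA0086-, mouselincRNA0204+, mouselincRNA0627- and mouselincRNA1424+) had some but not all arrays above background. The 2 falls were mouselincRNA0712- by 1.46 and mouselincRNA1103- by 0.93 on the log2 scale.

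The direction of this late-gestation step depended on the scaling and on which probes were tested. The split was 5 up and 8 down after normexp background correction and 3 and 5 after quantile normalization. It was 9 and 2 with the 75th percentile taken over probes detected on all arrays. In the authors' values, which hold 142 of the 248 members, it was 2 and 3. Shares of all probes are not given for these splits. Among the 113 members above background everywhere, 1 rose (0.885%) and 3 fell (2.655%), beside 5.025% and 1.459% of all such probes. All 5 calls within scan 1 (background: 3.23% up, 0.541% down) and all 7 calls with scan as a block (background: 5.93% up, 2.05% down) were rises. Calls numbered 4, 3 and 6 without E14.5 replicates 1, 2 and 3, and 23 without E17.5 replicate 2. The median log2 difference of -0.28 (all probes: -0.06) became 0.07 with scan as a block, so the members as a whole had no settled direction at this step. The rises of mouselincRNA0453+, mouselincRNA1424+ and mouselincRNA1468- were called under every scaling of the scanner values, with scan as a block and within scan 1. Of these, mouselincRNA1424+ sat at the shared lowest value on 2 of the 3 E14.5 arrays. Its level and spread at E14.5, and so the size of its rise, were therefore not fully measured.

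At birth, from E17.5 to neonatal liver, 36 members (14.52%) fell and 8 (3.23%) rose (background: 9.66% of all probes down, 8.4% up). Of the falls, 21 were measured on every array of both stages, and they ranged from 0.92 to 3.1 on the log2 scale. The median log2 difference over members was -0.54, beside -0.00 over all probes, -0.40 over human lincRNA probes and -0.23 over lincRNA exon probes. Of the human lincRNA probes 14.71% fell and 3.68% rose, and of the lincRNA exon probes 11.9% and 6.72%. The excess of falls over rises was thus not particular to the mouse lincRNA probes. The counts were smaller with scan as a block, where 8 fell (3.23%) and 3 rose (1.21%), beside a background of 3.22% down and 2.84% up. The share of members that fell was then near the background, and the median difference was -0.01. Within scan 2, where E17.5 replicate 3 alone stands for its stage, 8 fell and 1 rose (background: 3.09% down, 2.79% up). Calls numbered 20, 18 and 127 without E17.5 replicates 1, 2 and 3, and 27, 22 and 23 without neonatal replicates 1, 2 and 3. The fall of 5 probes was called under every scaling of the scanner values, with scan as a block, within scan 2 and without each array in turn: mouselincRNA0052-, mouselincRNA0077-, mouselincRNA0295+, mouselincRNA1040+ and mouselincRNA1103-. No rise met these conditions.

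From neonatal to adult liver, 36 members (14.52%) rose and 1 (0.403%) fell (background: 12.51% of all probes up, 13.4% down). The share that rose was near the background, and the share that fell was far below it. The rises ranged from 0.79 to 3.0 on the log2 scale, and 20 of them were measured on every array of both stages. The median difference over members was 0.63, beside 0.17 over all probes, 0.60 over human lincRNA probes and 0.39 over lincRNA exon probes. Of the human lincRNA probes 13.24% rose and 1.96% fell, and of the lincRNA exon probes 13.45% and 6.83%. The excess of rises over falls was thus not particular to the mouse lincRNA probes. Both stages were read in scan 2, and within it 71 rose and 2 fell (background: 19% up, 16.2% down). The block for scan gave 58 rises (23.4%) and 1 fall (0.403%), beside a background of 17.4% up and 15.1% down. Every scaling, the authors' values included, gave more rises than falls. Calls numbered 14 and 15 without neonatal replicates 2 and 3, 12 and 15 without adult replicates 1 and 3, and 59 without E17.5 replicate 3. Adult replicate 2, the only array of scan 2 without multiplicative detrending, was the lowest of the 3 adult arrays for 172 of 248 members, and without it 44 members rose and 1 fell. Under every scaling of the scanner values, with scan as a block and within scan 2, 18 rises and the fall of mouselincRNA1103- were called. The 6 rises also called without each array in turn were those of mouselincRNA0294-, mouselincRNA0315-, mouselincRNA0491-, mouselincRNA0939+, mouselincRNA1035- and mouselincRNA1623-. Of the 18 rises, those of mouselincRNA0294-, mouselincRNA0491-, mouselincRNA0753- and mouselincRNA1279+ belong to probes that passed the filter through the adult alone. For those probes the rise is a description and the calls are no test of it.

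Over the whole course, from E12.5 to adult liver, 65 members were higher and 40 lower in the adult (background: 25.7% of all probes up, 25.1% down). The share of members that rose, 26.2%, was near the background, and that of members that fell, 16.1%, was below it. Of the 65 rises, 37 are bounds because the probe was above background on no E12.5 array, and 11 sat at the shared lowest value on all 3 E12.5 arrays. Among the 113 members above background everywhere, 15 rose (13.3%) and 25 fell (22.1%), beside 22.8% and 29.4% of all 23503 such probes. When scan was a block, 55 rose and 4 fell (background: 16.5% up, 15.2% down). The split was 59 and 23 after normexp correction and 62 and 53 after quantile normalization. It was 21 and 33 in the authors' values, which hold 142 of the 248 members. Shares of all probes are not given for these splits. E12.5 and adult arrays share no scan, so stage and scan are separated here only through E17.5. Falls called under every scaling of the scanner values and with scan as a block were those of mouselincRNA0052-, mouselincRNA0295+ and mouselincRNA1103-, and 19 rises met the same conditions. Among these rises, mouselincRNA0204+, mouselincRNA0294-, mouselincRNA0491-, mouselincRNA0627-, mouselincRNA1098+, mouselincRNA1279+ and mouselincRNA1667- became members through the adult arrays alone. For those probes the adult rise is a description and the calls are no test of it.

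The largest range of stage means among members above background everywhere belonged to mouselincRNA0453+. In replicate order it read 0.38, 0.29 and -0.10 on the E12.5 arrays, 1.65, 1.28 and 1.28 on the E14.5 arrays, 4.79, 4.47 and 4.47 at E17.5, 5.63, 5.62 and 5.46 at the neonatal stage, and 5.32, 4.64 and 5.14 in the adult. The 3 arrays of each embryonic stage lay above all arrays of the stage before, and the neonatal arrays lay above those of E17.5. E17.5 replicate 3 read the same as replicate 2 although the scans differed. The rise from E14.5 to E17.5 was 3.17 ± 0.24 on the log2 scale (SE, n = 3 and 3; limma's adjusted p = 3.19e-06) and was 3.23 within scan 1 (adjusted p = 0.00129). The adult level was 28.7-fold that at E12.5 (adjusted p = 1.4e-09). The earlier rise to E14.5 was 1.21 ± 0.24 (adjusted p = 0.00985) and lost its call without E12.5 replicate 3 (0.0531) or E14.5 replicate 1 (0.0745). The later rise at birth was 0.99 ± 0.24 (adjusted p = 0.0128) and was 1.1 with scan as a block, which was not called (adjusted p = 0.0672). It was also not called after quantile normalization (0.0611), in the authors' values (0.0516) or without E17.5 replicate 2 (0.0502).

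Another course was seen for mouselincRNA1103-, which also rose to E14.5 but peaked there and was lowest in the adult. Its readings were 2.57, 2.05 and 2.31 on the E12.5 arrays, 3.82, 3.39 and 3.59 on the E14.5 arrays, 2.83, 2.80 and 2.36 at E17.5, 0.62, 0.61 and 0.40 at the neonatal stage, and -0.30, -0.82 and -0.54 in the adult. Neighbouring stages in this course did not overlap. It was the only member called in each of the 4 consecutive comparisons. The fall at birth was 2.12 in size, 4.35-fold (SE 0.24; limma's adjusted p = 7.73e-05), and was -1.82 within scan 2 (adjusted p = 0.0189). The fall from neonatal to adult was 2.14-fold (adjusted p = 0.00377). The fall from E14.5 to E17.5, -0.93 ± 0.24 (adjusted p = 0.0297), was -0.78 and not called with scan as a block (adjusted p = 0.0601), nor without any 1 of the E14.5 replicates (0.0572 to 0.141). The rise to E14.5 was 1.29 ± 0.24 (adjusted p = 0.00625; 0.0504 without E14.5 replicate 1).

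Another probe higher before birth was mouselincRNA0052-. It read 4.26, 4.02 and 3.45 on the E12.5 arrays, 5.45, 4.84 and 5.16 on the E14.5 arrays, 4.54, 4.88 and 4.65 at E17.5, 2.46, 2.53 and 1.91 at the neonatal stage, and 1.66, 1.95 and 1.70 in the adult. All embryonic readings lay above all postnatal readings. The fall at birth was 5.24-fold, -2.39 ± 0.27 on the log2 scale (limma's adjusted p = 8.47e-05), and was -2.35 with scan as a block (adjusted p = 0.0034). The rise of 1.24 ± 0.27 to E14.5 (adjusted p = 0.017) was not called within scan 1 alone (adjusted p = 0.0625) or without E12.5 replicate 3 or E14.5 replicates 1 or 3 (adjusted p = 0.0738 to 0.111).

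Another fall at birth was measured by mouselincRNA0078+, which read 1.46, 1.79 and 0.78 at E17.5 and -0.39, -0.59 and -1.03 in neonatal liver. The difference was -2.01 ± 0.29 (limma's adjusted p = 0.000517), and -1.45 with scan as a block (adjusted p = 0.0263). Within scan 2 alone it was not called (adjusted p = 0.0582). Its number follows that of mouselincRNA0077-, which also fell at birth, but the files do not say whether neighbouring numbers are neighbours in the genome.

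A fetal probe that dropped below background after birth was mouselincRNA0295+. It read -1.43, -2.14 and -2.49 on the E12.5 arrays, -0.80, -0.95 and -0.90 on the E14.5 arrays and -1.22, -1.12 and -2.73 at E17.5, each above background. No neonatal or adult array was above background, and the readings there lay between -5.62 and -4.17. Neonatal signal was at least 3.26-fold lower than that at E17.5 and adult signal at least 2.58-fold lower than that at E12.5 (limma's adjusted p = 0.000502 and 1.44e-05 for the unbounded differences). With scan as a block both differences were called (adjusted p = 0.0262 and 0.0258). Without E17.5 replicate 1 as well as with the block, the difference to E12.5 was not called (adjusted p = 0.0625).

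The fall of mouselincRNA1040+ at birth differed from the others in where E17.5 replicate 3 stood. It read -1.21, -1.34 and 0.68 at E17.5 and -2.69, -2.58 and -2.47 at the neonatal stage, with E17.5 replicate 3 the highest array of all. The difference was -1.96 ± 0.43 (limma's adjusted p = 0.0079) and -3.26 with scan as a block (adjusted p = 9.02e-05). The larger size with the block rests on the high reading of E17.5 replicate 3, so the block is no independent check. The embryonic readings before that lay between -1.81 and -1.23, with 1 missing value on E12.5 replicate 1 that the fit left out.

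Of the probes near or below background at E12.5, mouselincRNA1468- rose in steps. It read -3.38, -3.59 and -3.67 on the E12.5 arrays, below background on all 3 arrays, then -1.92, -1.92 and -2.29 at E14.5, and 0.81, 1.15 and -1.48 at E17.5. The neonatal readings were -0.14, -0.06 and -0.02 and the adult readings 0.47, -0.32 and -0.27. E17.5 replicate 3 stood below the other E17.5 arrays and above all E14.5 arrays. The rise from E14.5 to E17.5 was 2.21 ± 0.51 (limma's adjusted p = 0.0178) and 3.03 within scan 1 (adjusted p = 0.00129). Without any 1 of the E14.5 replicates, or without E17.5 replicates 1 or 2, it was not called (adjusted p = 0.05 to 0.0671). Adult signal was at least 8.44-fold that at E12.5 (adjusted p = 5.74e-05 for the unbounded difference of 3.51). With scan as a block the difference was also called, but its size moved to 5.97 (adjusted p = 7.38e-07). The scan term there rests on the low reading of E17.5 replicate 3, so the block is no independent check.

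The next number, mouselincRNA1467+, followed another course. It was below background on every E12.5 and E14.5 array and read -2.85, -2.62 and -0.41 at E17.5, -0.20, -0.80 and -0.63 at the neonatal stage, and 0.62, -0.59 and 0.35 in the adult. E17.5 replicate 3 stood among the neonatal readings. Adult signal was at least 9.48-fold that at E12.5 (limma's adjusted p = 4.59e-05), but with scan as a block the difference of 1.77 was not called (adjusted p = 0.0839). A further case was mouselincRNA0722-, for which an adult rise of 2.63 ± 0.54 (adjusted p = 0.00113) was 0.00 with scan as a block (adjusted p = 0.998), and E17.5 replicate 3 read -0.21 beside -2.95 and -2.73 on the other E17.5 arrays.

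Among probes that were higher in the adult than in neonatal liver, mouselincRNA1623- had the largest rise measured on every array of both stages. It read -1.85, -2.25 and -1.83 at the neonatal stage and -0.16, -0.60 and -0.22 in the adult, and all 12 earlier readings lay below the adult ones. The rise was 3.14-fold, 1.65 ± 0.27 on the log2 scale (limma's adjusted p = 0.00039), and it was called within scan 2 (adjusted p = 0.00155). A rise of 2.79-fold was measured by mouselincRNA0315-, from -1.03, -1.70 and -2.0 to -0.01, -0.42 and 0.13 (adjusted p = 0.00121). That probe was nearer its adult level at E17.5, where it read -0.86, -0.59 and -0.89.

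The next largest measured rise after that of mouselincRNA1623- was that of mouselincRNA1337-. It was 2.86-fold, from -2.12, -2.26 and -2.43 to -0.57, -0.72 and -0.98 (limma's adjusted p = 0.0282). Its neonatal and adult readings did not overlap, but the call was lost without any one of those 6 arrays (adjusted p = 0.0524 to 0.0885). E17.5 replicate 3 read -2.95 beside -0.78 and -0.49, and the fit pools this spread with that of the other stages. Within scan 2 alone the rise was called (adjusted p = 0.00154).

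The adult signal of 2 probes was above background while no neonatal array was, with the largest bounds. That of mouselincRNA0491- read -3.89, -3.81 and -4.36 at the neonatal stage and -2.09, -2.54 and -0.79 in the adult, at least 3.01-fold higher. That of mouselincRNA1117- was at least 2.44-fold higher (limma's adjusted p = 0.0321), but this probe had been above background on all 3 arrays of E12.5 and E14.5 too, so its low signal was limited to E17.5 replicate 3 and the neonatal arrays. The call for mouselincRNA1117- was lost without neonatal replicates 1 or 3 or adult replicates 1 or 2 (adjusted p = 0.07 to 0.103). A probe above background in the adult alone, mouselincRNA0294-, was chosen after its values were seen. It read -2.38, -2.03 and -2.34 there and between -5.75 and -3.40 elsewhere, with adult signal at least 2.21-fold that of neonatal liver. Both mouselincRNA0294- and mouselincRNA0491- became members through the adult arrays alone, so their adult rise is a description and no test of it is given.

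Other probes named by size of change were less firmly placed. The probe mouselincRNA0543- read -1.54, -1.89 and 1.16 at E12.5 and -0.89, 2.19 and -1.40 at E14.5, a spread within stages (SD 1.67 and 1.94) as large as most stage differences. Its adult rise of 2.80 ± 0.92 (limma's adjusted p = 0.0205) was not called with scan as a block (adjusted p = 0.75) or without E12.5 replicates 1 or 2 or adult replicates 1 or 3 (adjusted p = 0.0599 to 0.0848). The fall of mouselincRNA0712- from E14.5 (1.84, 1.65 and 1.44) to E17.5 (0.18, 0.11 and 0.25) was tight in both stages (adjusted p = 0.0321), yet was lost without any single array of those stages (adjusted p = 0.0535 to 0.125), with scan as a block (0.0535), within scan 1 (0.0644) and with no filter on background (0.0633). The adult falls of mouselincRNA1494- (-2.13 ± 0.33, adjusted p = 0.000107) and mouselincRNA1244- (at least 1.61-fold, adjusted p = 0.0219) were not called with scan as a block (adjusted p = 0.0997 and 0.166). The latter was also lost after normexp correction (0.625) and without E12.5 replicate 1 (0.0729) or adult replicate 2 (0.0849).

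Other changes at birth were also known only as bounds. In neonatal liver mouselincRNA0776- was at least 2.21-fold and mouselincRNA1519+ at least 1.39-fold higher than at E17.5 (limma's adjusted p = 0.014 and 0.0324), and mouselincRNA0154+ at least 2.36-fold lower (adjusted p = 0.0164). Neither rise was called with scan as a block (adjusted p = 0.335 and 0.679), and after normexp correction none of the 3 was called (adjusted p = 0.0538, 0.303 and 0.111; the fall of mouselincRNA0154+ went from -1.38 to -0.40). The fall of mouselincRNA0154+ lost its call without E17.5 replicate 1 (adjusted p = 0.0561) or neonatal replicate 3 (adjusted p = 0.0619), and the rise of mouselincRNA0776- without E17.5 replicate 2 (0.0636) or neonatal replicate 2 (0.0599). That of mouselincRNA1519+ lost its call without E17.5 replicates 1 or 2 or any neonatal replicate (adjusted p = 0.0669 to 0.133). The bounded rises from E14.5 to E17.5 were called for mouselincRNA0529- (adjusted p = 0.0147; 0.0728 without E14.5 replicate 2) and mouselincRNA0303- (0.0243; 0.115 without E14.5 replicate 1, 0.071 with scan as a block or without E17.5 replicate 3, and 0.0504 without E17.5 replicate 1). Neither was called after quantile normalization (0.232 and 0.156) or normexp correction (0.099 and 0.0546).

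The smallest ranges of stage means among probes above background everywhere were those of mouselincRNA0077+, mouselincRNA0161- and mouselincRNA1512-. The readings of mouselincRNA0077+ lay between 4.52 and 5.50 on all 15 arrays, and no difference among stages was called (limma's adjusted p = 0.357 over the 5 stages). Those of mouselincRNA0161- lay between 5.63 and 7.04, with E12.5 replicate 1 the highest. The stage means of mouselincRNA1512- lay between -1.74 at the neonatal stage and -1.12 at E14.5.

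The + and - probes of a number were compared. Over the 43 numbers with both probes among the members, the correlation of their 5 stage means had a median of 0.40 and ran from -0.95 to 0.99, with 9 pairs over 0.8 and 17 below 0. This is a description over 5 points that share the same arrays. The most alike pair was mouselincRNA0295 (r = 0.99), in which the - probe read -0.52, -0.31 and -0.77 at E17.5 and -1.78, -1.66 and -1.69 in neonatal liver and fell 2.26-fold (limma's adjusted p = 0.00839) beside the fall of the + probe given above. The fall of the - probe was not called with scan as a block (-0.94, adjusted p = 0.157) or within scan 2 (0.109). The next were mouselincRNA1512 and mouselincRNA0543 (both r over 0.96). The least alike were mouselincRNA0706 (r = -0.95), mouselincRNA1595 (r = -0.95) and mouselincRNA1592 (r = -0.87).

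Whether a step differed between the + and - probe of a number was tested in limma on the within-array difference of the probes. The test covered the 722 + and - pairs in which both probes passed the filter, and was added after the data were seen. From E12.5 to E14.5 none of the 43 mouse lincRNA pairs was called in limma (background: 1.52% of pairs; 7 at an unadjusted p below 0.05), and 1 was with scan as a block. From E14.5 to E17.5, 4 were called (background 6.23%), at birth 8 (12.3%), from neonatal to adult 2 (9.56%) and from E12.5 to adult 21 (44.6%). The block for scan gave 3, 2, 2 and 8 for the last 4 (background 4.71%, 2.49%, 13.2% and 18.7%). The largest late-gestation difference was that of mouselincRNA0453, where the + probe rose by 3.67 ± 0.43 more than the - probe (adjusted p = 0.000495; 0.00937 within scan 1). The - probe, mouselincRNA0453-, read -1.03, -1.22 and -1.17 on the E14.5 arrays, -1.16, -0.90 and -2.83 at E17.5 and -2.54, -2.34 and -2.37 at the neonatal stage. Without a block it was called in none of the 5 comparisons, though with scan as a block it rose by 0.99 from neonatal to adult liver (adjusted p = 0.00217) and by 1.77 from E12.5 to the adult (0.00237). Its E17.5 replicate 3 stood below the neonatal arrays.

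A divergence at the same step was measured for mouselincRNA0797, chosen after its values were seen. Its + probe read -1.41, -1.62 and -1.50 at E14.5 and 0.24, 0.76 and -1.54 at E17.5, while its - probe read 0.33, 0.17 and -0.02 and then -0.19, 0.29 and -1.33. Both probes dropped on E17.5 replicate 3, and the within-array difference kept the separation: the + probe rose by 1.90 ± 0.33 more than the - probe (limma's adjusted p = 0.00607; 0.0267 within scan 1).

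At birth the probes of mouselincRNA0077 separated. The - probe read 2.78, 2.32 and 1.76 on the E12.5 arrays, 3.63, 3.1 and 3.42 on the E14.5 arrays, 2.84, 2.98 and 2.14 at E17.5, 0.41, 0.37 and -0.21 at the neonatal stage, and 0.59, 0.43 and 0.93 in the adult, all postnatal readings below all embryonic ones. Its fall at birth was 5.51-fold (limma's adjusted p = 0.000234), and -1.95 with scan as a block (adjusted p = 0.0136), while mouselincRNA0077+ had the smallest range of stage means among members above background on every array. The difference between the probes was 2.45 ± 0.47 (adjusted p = 0.00766), but with scan as a block it was 1.66 and not called (adjusted p = 0.215). From neonatal to adult liver the probes of mouselincRNA0939 separated. The + probe rose from -0.77, -0.88 and -0.98 to 0.90, 0.40 and 0.42 (2.73-fold, adjusted p = 0.00398) and the - probe read -1.46, -1.05 and -1.76 and then -1.08, -1.40 and -1.33. The rise of the + probe was larger by 1.30 ± 0.31 (adjusted p = 0.0183; 0.0207 within scan 2, where all 6 arrays were read).

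Over the whole course the probes of 2 numbers were called in opposite directions. For mouselincRNA0706 the + probe read 3.33, 2.33 and 2.20 at E12.5 and 4.38, 3.79 and 4.20 in the adult (limma's adjusted p = 0.00118), and the - probe read 0.86, 0.52 and 0.34 and then -0.07, -0.75 and -0.08 (adjusted p = 0.00864). Neither was called with scan as a block (1.17, adjusted p = 0.126, and -1.02, adjusted p = 0.082). Their difference in change was 2.38 ± 0.32 (adjusted p = 6.95e-05) and was also called with scan as a block (adjusted p = 0.0145). For mouselincRNA1595 the + probe read -0.69, -1.12 and -1.25 at E12.5 and -2.62, -3.44 and -4.30 in the adult, a 5.41-fold fall (limma's adjusted p = 0.00389), with 2 of the adult arrays above background. The - probe read -2.63, -2.98 and -3.44 and then 0.06, -1.56 and -0.28, a 5.37-fold rise (adjusted p = 0.000526). Neither was called with scan as a block (adjusted p = 0.862 and 0.281). On E17.5 replicate 3 both probes had already moved, to -3.68 and -0.95, and with scan as a block their difference of -1.26 was not called (adjusted p = 0.402).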

How the data were processed

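Liver RNA of 5 stages was hybridised to 15 Agilent arrays of 1 colour. Per the file headers, the authors extracted intensity values with Feature Extraction 11.0.1.1 (10.7.3.1 per the submitters' processing notes) on a grid of build mm9. Multiplicative detrending was on for 6 arrays, per the file headers. The deposited value table holds log2 values whose ranks match the scanner values on every array (Spearman 1, medians 7.80 to 7.89), and how the authors normalized and filtered it is not given in the sources used here.

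Spots flagged as outliers and control spots were left out, spots of a probe were averaged, and log2 of the processed intensity minus the array's 75th percentile was used. Probes well above background on all 3 arrays of a stage entered limma 3.58.1 (R 4.3.3; lmFit and eBayes, two-sided, 15 arrays in 1 fit, stage means, no block). The scripts were tested on simulated data. The number of arrays limits the precision. Named probes were the 3 largest rises and falls per comparison measured on all arrays of both stages, the 2 largest bounds, the 5 largest and 3 smallest ranges, and the 3 most and 3 least alike + and - pairs. Members and lists were chosen with earlier results of these data known. Alternatives covered background correction (normexp with offset 50, on median signals because the files hold no mean signals), normalization, filters, scan, replicate numbers, array weights and single arrays. Replicate numbers did not pair arrays: of 30 pairs of same-numbered arrays, 7 had correlated deviations over 0.1 (range -0.243 to 0.478).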

Additional observations from a re-analysis of the deposited data

How the results depend on the processing

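The counts of calls were recomputed under each alternative, and changes by more than 1.5 times are given here, in the order E12.5 to E14.5, E14.5 to E17.5, birth, neonatal to adult, E12.5 to adult, and any stage. With scan as a block the counts were 10 for the first, 11 for birth, 59 for neonatal to adult and for E12.5 to adult alike, and 68 for any stage, and without E17.5 replicate 1 as well they were 10, 11, 65, 45 and 63. Within 1 scan they were 3, 5, 9 and 73 for the 4 consecutive steps. Array weights gave 29 at the first step, 125 at birth and 126 from neonatal to adult. With no filter on background the first step had 3 calls and neonatal to adult 22. The filter for probes above background everywhere gave 4 for E14.5 to E17.5, 40 for E12.5 to adult and 74 for any stage. The authors' values, which hold 142 of the 248 members, gave 5, 54 and 88 there. With E17.5 represented by replicate 2 alone, an alternative chosen after seeing the data, the first step had 10 calls, birth 103 and neonatal to adult 65. Leaving out 1 array at a time gave 0 to 12, 3 to 23, 18 to 127, 12 to 59, 82 to 126 and 112 to 175 calls. The causes of these shifts were not tested, and no share of all probes stands beside these counts.

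The replicate number as a block gave 4, 12, 48, 40, 108 and 146 calls, each within 1.5 times of 5, 10, 44, 37, 105 and 138. Since the numbers pair no arrays (7 of 15 arrays correlated best with their own number), the block was not used. For 33 named differences 857 alternatives were fitted: the call was kept in 753 and lost in 104, the direction turned in 0, and 13 differences kept their call throughout. Signal near background limits the probes not detected on every array: of the 65 rises from E12.5 to adult, 37 are bounds.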
